A study of Mus musculus with 8 samples.

Results

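The G2 and mitosis genes described here are 38 mouse genes whose products start mitosis, build the spindle, fasten chromosomes to it and divide the cell. They were chosen by name among the 55335 Ensembl identifiers with deposited RNA levels, and all 38 were matched. RNA came from sorted prostate epithelium, described in the series' design text as EpCAM-positive and CD24a-positive with low CD49f, and was sequenced in 8 libraries, 2 in each of 4 groups. All mice had in common the genotype that the labels shorten to PP, and PP sham and PP ADT mice had no other allele named. PPK sham and PPK ADT mice were in addition Kmt2cPC-/-, where Kmt2c encodes a histone methyltransferase. Sham mice were 3.5 months old and ADT mice 6.5 months old, so the effects of treatment and age cannot be told apart. ADT commonly stands for androgen deprivation therapy. The labels give neither how ADT was done nor what PC stands for, and they do not state that replicates A and B came from separate animals. The spread behind each p-value is thus that between a group's libraries, which may be technical.

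Mitosis begins when the kinase CDK1, bound to cyclin A and then cyclin B, becomes active, and it ends when the anaphase-promoting complex marks cyclin B and securin for destruction. In between, Polo-like and Aurora kinases direct the spindle, and the spindle checkpoint holds anaphase back until every kinetochore is attached. RNAs of these genes rise together in late S phase and G2, and they are low in cells that do not divide. The epithelium of the adult prostate renews slowly, and the gland shrinks when androgen is withdrawn.

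Many promoters of this class carry CCAAT boxes, which the factor NF-Y binds, and a cell cycle homology region (CHR), which the MuvB complex binds. The promoters of 6 genes, 3 for mitotic entry (Ccnb1, Ccnb2, Cdk1), the anaphase activator Cdc20, the proliferation marker Mki67 and the kinase Plk1, are shown because their RNAs are followed most closely below. Each is written 5′ to 3′ on the gene's strand from RefSeq on GRCm38.p6. Capitals mark CCAAT or its reverse complement ATTGG, and the CHR written as TTTGAA or TTTAAA. The last reads the same on both strands, and boxes and CHR do not overlap here.
Ccnb1: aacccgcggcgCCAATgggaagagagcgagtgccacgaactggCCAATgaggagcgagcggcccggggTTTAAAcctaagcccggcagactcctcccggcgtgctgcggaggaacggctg
Ccnb2: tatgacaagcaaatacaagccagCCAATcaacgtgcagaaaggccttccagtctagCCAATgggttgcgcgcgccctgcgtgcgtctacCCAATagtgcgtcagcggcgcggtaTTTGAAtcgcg
Cdk1: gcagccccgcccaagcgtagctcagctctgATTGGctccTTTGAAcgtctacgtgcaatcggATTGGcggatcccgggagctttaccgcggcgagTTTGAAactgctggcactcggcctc
Cdc20: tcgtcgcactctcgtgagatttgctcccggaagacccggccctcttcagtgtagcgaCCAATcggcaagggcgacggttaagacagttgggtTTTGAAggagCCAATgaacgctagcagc
Mki67: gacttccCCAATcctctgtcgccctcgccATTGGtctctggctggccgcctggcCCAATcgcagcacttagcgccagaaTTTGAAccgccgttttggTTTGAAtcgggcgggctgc
Plk1: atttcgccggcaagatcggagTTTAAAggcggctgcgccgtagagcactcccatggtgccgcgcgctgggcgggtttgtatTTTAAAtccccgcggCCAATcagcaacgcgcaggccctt
The stretches lie at chr13:100786477-100786596 for Ccnb1, chr9:70421540-70421664 for Ccnb2, chr10:69352903-69353022 for Cdk1, chr4:118437334-118437453 for Cdc20 and chr7:135716459-135716574 for Mki67, all on the minus strand. That of Plk1 lies at chr7:122159325-122159444 on the plus strand. Neighbouring CCAAT boxes began 32 bases apart in Ccnb1, 33 and again 33 in Ccnb2, 32 in Cdk1 for the pair nearest the start, and 45 in Cdc20. Mki67 had 3 boxes, 22 and 25 bases apart, and the stretch of Plk1 showed 1 box with 2 TTTAAA matches. Outside the stretches shown, Plk1 also had TTTGAA from base 31 after the start. Ccnb2 had a further TTTGAA 167 bases before the start, and Cdk1 a further ATTGG 208 bases before it.

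RefSeq promoters were found for 32 of the 38 genes, with several starts for Ect2 and Prc1. The search covered 300 bases, from 250 before to 50 after the start, on both strands. The CHR, as either of the spellings above, was present in 28 of 32 (87.5%), against 30.6% of all 27025 genes with a promoter in the same source. CCAAT was present in 24 (75.0%, against 41.1% of all genes), and CCAAT together with a CHR in 23 (71.9%, against 12.2%). The E2F core, searched as GCGGGAA and GGCGGGA, occurred in 9 (28.1%, against 14.9%). Bub1, Mad2l1, Nuf2 and Nusap1 had no CHR letters in the window, and Mad2l1, Nuf2 and Nusap1 had neither element. In the 250 bases before the start alone, the CHR was found in 17 (53.1%, against 28.1%), so many of these matches lie just after the start. A match describes letters, not a bound site.

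Levels below are FPKM, fragments scaled by the authors for gene length and library size, given for replicate A and then B. Differences are of log2(FPKM + 1), with their SE, and they understate changes of genes near or below 1 FPKM, where most of these genes lie. In this scale a gene's 2 libraries of a group differed by a median of 0.0834 to 0.121 over the 38 genes. The 8 tables sum to between 284015 and 333977 FPKM and hold no counts. Steps among low values put the depth of the other libraries at 0.702 to 0.824 of that of PP sham replicate A, so an absolute depth is unknown. Kmt2c, the targeted gene, was read at 13.3 and 13.9 in PP sham, 8.67 and 8.15 in PPK sham, 10.3 and 9.33 in PP ADT, and 6.60 and 6.36 in PPK ADT. It was lower in PPK but not absent, and the labels do not say which exons were deleted.

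All 38 genes were detected in all 8 libraries, at low levels. Their median was 1.05 FPKM in PP sham, 1.10 in PPK sham, 0.636 in PP ADT and 2.45 in PPK ADT, against a median of 4.73 to 5.02 over the 14000 genes that reached 1 FPKM in 2 or more libraries and were tested. In PP ADT only 8 of the 38 had a mean of 1 FPKM or more, against 21 in PP sham, 23 in PPK sham and 33 in PPK ADT. Summed over the 38 genes, the level was 55.8 and 56.7 FPKM in PP sham and 56.7 and 58.2 in PPK sham. It was 27.3 and 27.6 in PP ADT, and 125.5 and 122.6 in PPK ADT. The sums of both sham groups thus lay close together, PP ADT at 0.488 times PP sham, and PPK ADT at 2.16 times PPK sham and 4.52 times PP ADT. In RNA of a whole sorted population, the number of dividing cells and the RNA per dividing cell cannot be told apart.

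This order recurred gene by gene. Both PPK ADT libraries lay above the other 6 for 35 of the 38 genes, an order shown by 29.6% of the genes tested, and the exceptions were Foxm1, Plk1 and Aurka. Both PP ADT libraries lay below the other 6 for 33 (14.0% of genes tested), all but Foxm1, Plk4, Mad2l1, Kif23 and Ect2. Both orders held for 31 (5.56%).

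**Figure D1:**
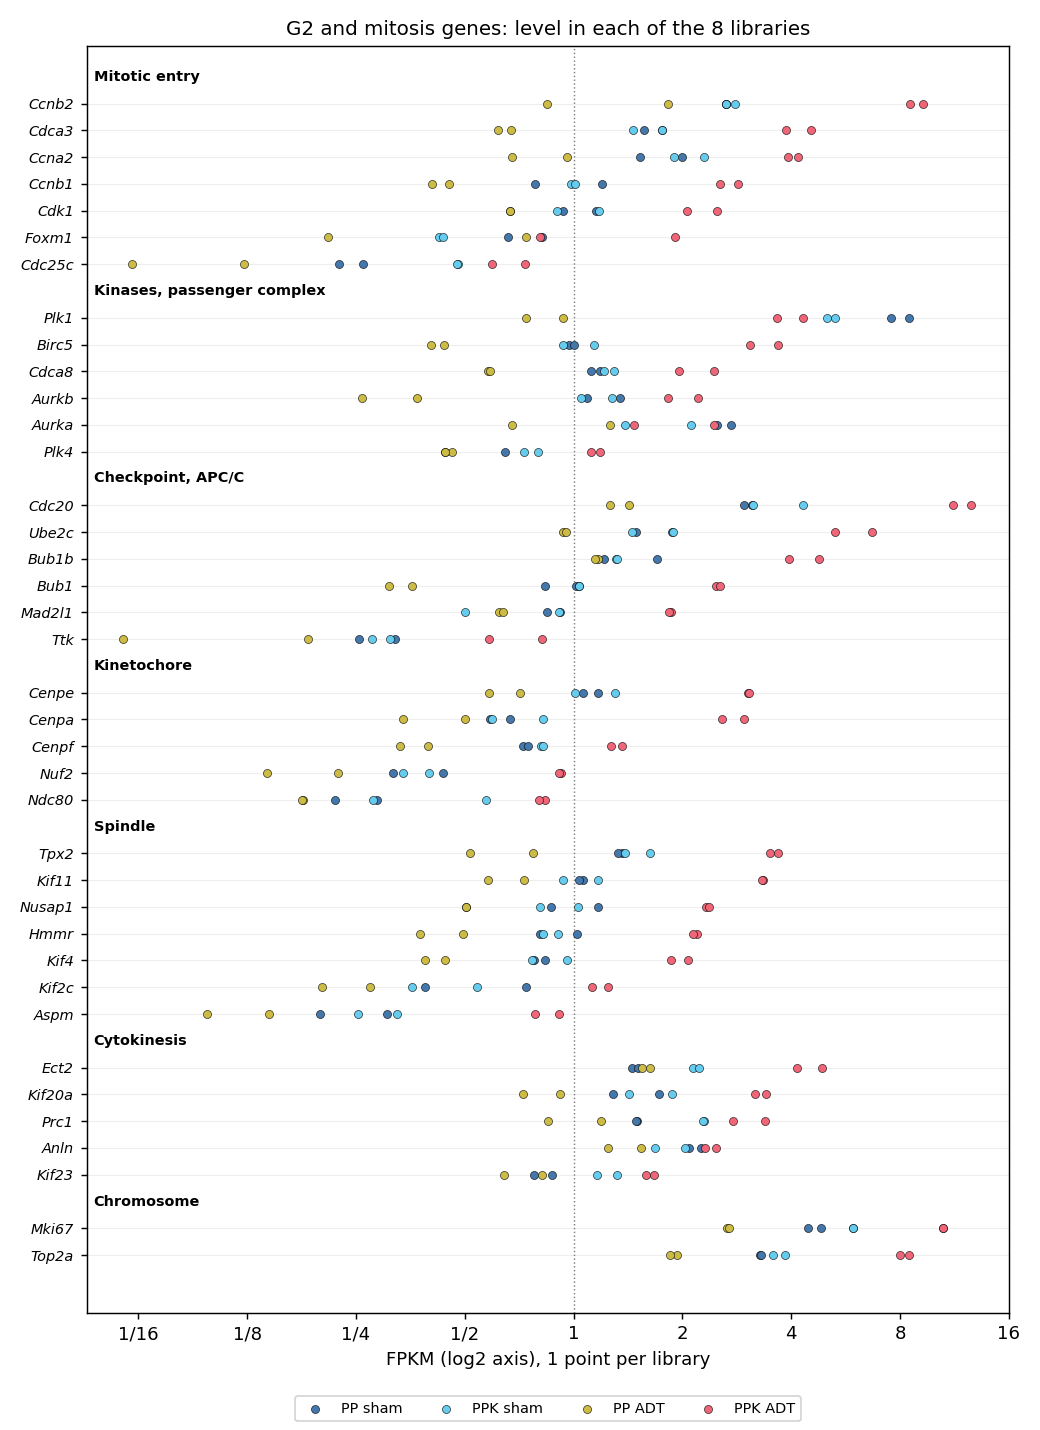
Level of each of the 38 genes in each library, grouped by role, on a log axis of FPKM, with a colour for each of the 4 groups and 2 points per group. The PPK ADT points lie to the right of the other 6 for 35 genes and the PP ADT points to the left for 33.

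In sham mice, PPK and PP differed little in these genes. Of 32 tested, 3 were higher in PPK (13.7% of all genes tested were) and 1 was lower (14.9%), by an adjusted p under 0.05 from limma. The higher ones were Mki67, Prc1 and Ect2, and the lower one was Plk1. The median log2 difference was 0.03, against -0.02 over all genes tested. An unadjusted p under 0.05 was reached by 5 (39.5% of genes tested). Each of these 4 calls was lost with at least 1 library left out, so none is firm: the higher calls number 0 without PP sham replicate A, PPK sham replicate A or PPK sham replicate B and 1 without PP sham replicate B, which also ends the call of Plk1.

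In ADT mice the genes were higher in PPK throughout. All 38 had both PPK ADT libraries above both PP ADT libraries (43.3% of genes tested did), and the ratio of group means ran from 1.72 for Anln to 8.86 for Cdc20, with a median of 4.76. Of 32 tested, 31 were called higher (32.5% of genes tested) and 0 lower (27.1%). But 7 of these (Plk4, Mad2l1, Cenpa, Cenpf, Kif2c, Kif4 and Hmmr) entered the test only through their PPK ADT libraries and so had to differ. Of the 25 that entered without those libraries, 24 were called higher, against 29.6% of the genes that entered likewise, with a median log2 difference of 1.37 against 0.01. In a fit with no filter, which held all 38, 36 were called higher, against 17.4% of its genes. Foxm1 and Aurka were not.

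In PP mice the genes were lower with ADT and age. Of 32 tested, 0 were called higher (19.1% of genes tested) and 23 lower (25.1%), and the median log2 difference was -0.43 against -0.07 over all genes. All 32 entered the test without the PP sham libraries. Both PP ADT libraries lay below both PP sham libraries for 34 of the 38 (43.4% of genes tested), and the median ratio of means was 0.506. The calls of Plk1, Mki67, Top2a, Cdc20, Cdca3, Birc5, Bub1, Aurkb and Tpx2 held in each alternative in which they were tested, apart from a rule that also asks for a log2 difference of 1. The other 14 were lost in at least 1. The count was 14 of 38 with no filter (10.8% of genes), 12 without PP sham replicate A, 13 without replicate B, 12 without PP ADT replicate A and 15 without replicate B.

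In PPK mice the direction was the opposite. Of 32 tested, 27 were called higher with ADT and age (31.9% of genes tested) and 1, Plk1, lower (30.7%). Of the 25 that entered without the PPK ADT libraries, 20 were called higher, against 29.0% of the genes that entered likewise, with a median of 0.79 against -0.04. With no filter 29 of the 38 were called higher (16.9% of genes) and Plk1 was not called (log2 difference -0.31, limma adjusted p = 0.0725). The calls of Aurkb, Plk1 and Plk4 were each lost when 1 library was left out. This comparison shares its PPK ADT libraries with the comparison of genotypes in ADT mice.

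The difference between the genotype effects in ADT and in sham mice was tested directly. It was called positive in 30 of 32 (30.0% of genes tested) and called negative in 0 (22.8%), with Plk4 and Kif23 not called. The calls of Aurka and Prc1 were lost in several alternatives, among them no filter (limma adjusted p = 0.0937 and 0.0509). Among the 25 genes that entered without the PPK ADT libraries, 24 were called positive, against 27.6% of such genes, with a median of 1.31 against 0.05. With no filter 32 of 38 were called (14.3% of genes), and Aurka, Foxm1, Kif23, Ndc80, Plk4 and Prc1 were not.

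**Figure D2:**
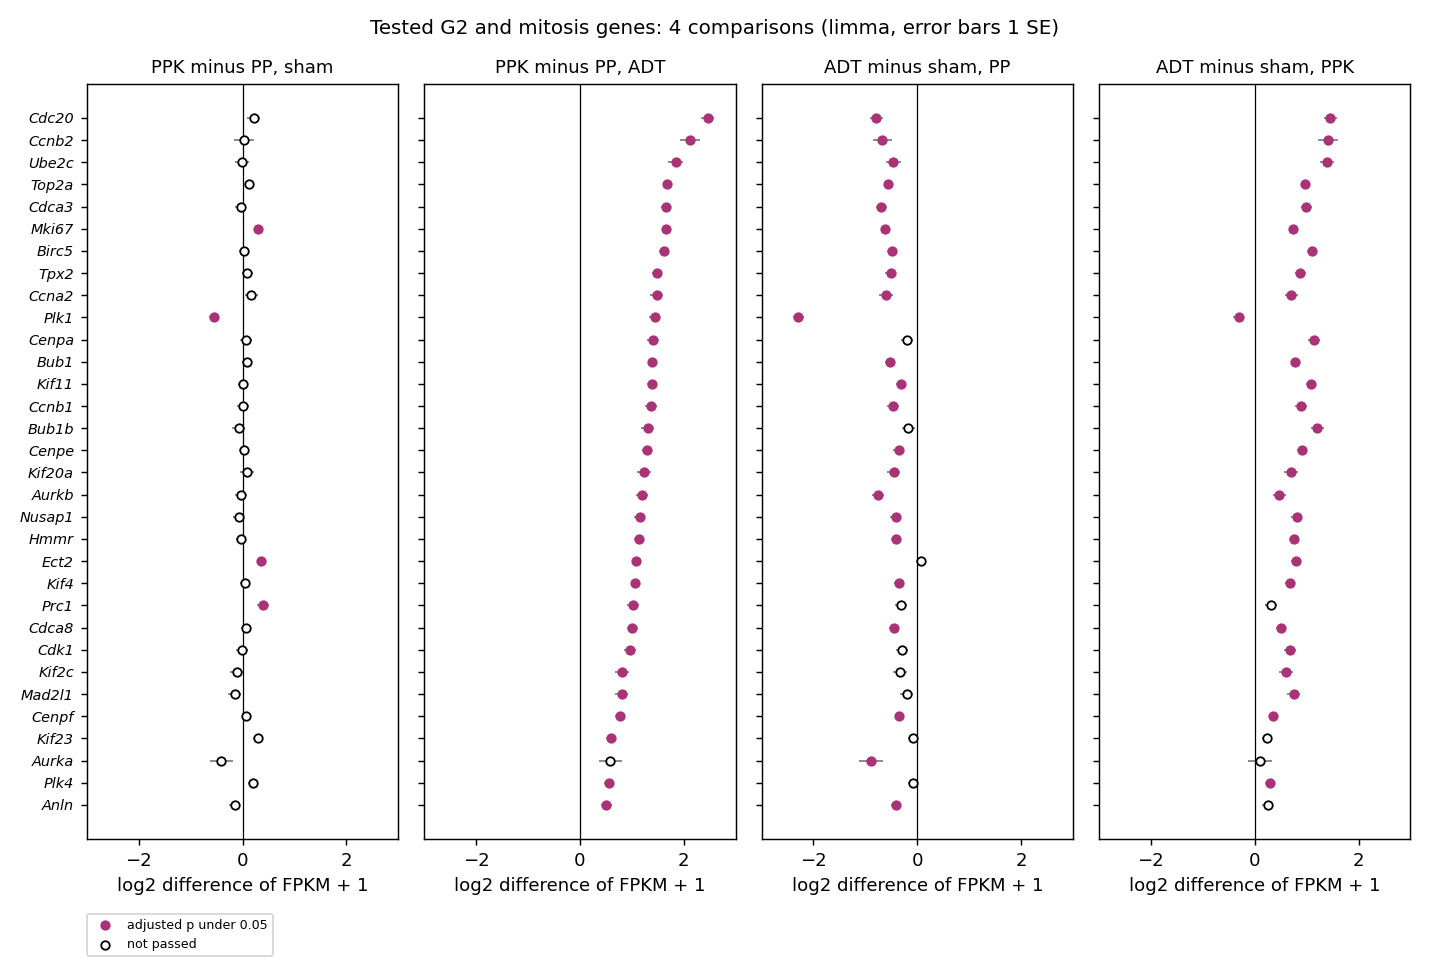
Log2 difference of FPKM + 1 with 1 SE for the 32 tested genes in 4 comparisons, one panel each, filled where the limma adjusted p was under 0.05. Points gather near 0 for genotype in sham mice, right of 0 for genotype in ADT mice, left of 0 for ADT with age in PP except Ect2, and right of 0 for ADT with age in PPK except Plk1.

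Among the genes of mitotic entry, the summed level of the 7 was 9.78 and 8.37 FPKM in PP sham, 9.06 and 9.66 in PPK sham, 4.11 and 4.79 in PP ADT, and 24.1 and 24.2 in PPK ADT. Ccnb2, a B-type cyclin (chromosome 9, 70407692 to 70421547, GRCm38), stood at 2.64 and 2.64 in PP sham, 2.64 and 2.80 in PPK sham, 0.846 and 1.82 in PP ADT, and 8.54 and 9.27 in PPK ADT. Its PP ADT libraries were the most unlike of the 38 pairs in PP ADT, 0.61 apart on the log2 scale, yet both lay below the other 6. In ADT mice it was higher in PPK by 2.12 ± 0.186 (limma adjusted p = 9.91e-05). In PP it fell by 0.67 ± 0.186 with ADT (limma adjusted p = 0.0264), a call lost without either PP sham library.

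Ccnb1, the principal mitotic cyclin (chromosome 13, 100778650 to 100786570), was read at 1.20 and 0.783 in PP sham, 0.980 and 1.01 in PPK sham, 0.451 and 0.405 in PP ADT, and 2.54 and 2.85 in PPK ADT. The sham groups overlapped, and the ADT groups stood apart on either side of them. PPK exceeded PP in ADT mice by 1.37 ± 0.119 (limma adjusted p = 9.26e-05). Ccna2, cyclin A, spanned 1.53 to 2.29 over the sham libraries, against 0.674 and 0.956 in PP ADT and 4.17 and 3.91 in PPK ADT, a genotype difference in ADT mice of 1.48 ± 0.129 (limma adjusted p = 9.5e-05). Their partner kinase Cdk1 (chromosome 10, 69335146 to 69352938) moved less, from 1.15 and 0.937 in PP sham to 0.668 and 0.668 in PP ADT (log2 difference -0.29 ± 0.115, limma adjusted p = 0.0823). In PPK ADT it stood at 2.49 and 2.05, above PPK sham at 1.18 and 0.901.

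Cdca3, which triggers the breakdown of the CDK1 inhibitor Wee1, was 3.86 and 4.53 in PPK ADT against 0.616 and 0.669 in PP ADT, with 1.46 to 1.76 in the sham libraries. Cdc25c, a phosphatase that activates CDK1, never reached 1 FPKM and was not tested: it stood at 0.224 and 0.261 in PP sham, 0.479 and 0.477 in PPK sham, 0.123 and 0.0601 in PP ADT, and 0.594 and 0.735 in PPK ADT. Foxm1, a transcription factor that switches on many of these genes (chromosome 6, 128362967 to 128376146), lay just outside the filter. Its libraries were 0.818 and 0.657 in PP sham, 0.424 and 0.435 in PPK sham, 0.737 and 0.209 in PP ADT, and 1.91 and 0.809 in PPK ADT. The pairs of both ADT groups were far apart, and PPK ADT replicate B lay below PP sham replicate A. In the fit with no filter its genotype difference in ADT mice was 0.66 ± 0.272 (limma adjusted p = 0.14). Parts of its exons lie within those of Tex52 and Gm44596 on the same strand, so its level is uncertain. Plk4 and Mad2l1, with 1.12 and 1.18 and with 1.85 and 1.83 in PPK ADT and less than 1 in the other 6 libraries, lay just inside.

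Among the mitotic kinases and the chromosomal passenger complex, Plk1, Aurka and Plk4 departed from the common orders. Plk1, a kinase that acts from mitotic entry to cytokinesis (chromosome 7, 122159439 to 122169873), was read at 7.55 and 8.46 in PP sham, 5.28 and 5.04 in PPK sham, 0.935 and 0.737 in PP ADT, and 4.32 and 3.64 in PPK ADT. It was highest in PP sham and lowest in PP ADT, and no groups overlapped. PPK was below PP in sham mice, by a log2 difference of -0.55 ± 0.103 (adjusted p = 0.00912 from limma). Among ADT mice PPK was above PP by 1.44 ± 0.103 (adjusted p = 3.69e-05 from limma).

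With ADT in PP, Plk1 fell by 2.29 ± 0.103 (limma adjusted p = 8.75e-06), to 0.104 of its sham mean, whereas the ratio of means of the other genes ran from 0.259 (Aurkb) to 1.08 (Ect2). With ADT in PPK it fell by 0.31 ± 0.103 (limma adjusted p = 0.0376), a call lost at a pseudocount of 0.1, with no filter, with only both PPK groups in the fit and without PPK sham replicate A, replicate B or PPK ADT replicate B. Plk1 made up 14.2% of the summed level of the 38 genes in PP sham, 8.98% in PPK sham, 3.05% in PP ADT and 3.21% in PPK ADT.

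Aurka, which matures the spindle poles (chromosome 2, 172356190 to 172370535), also had its highest mean in PP sham, at 2.50 and 2.72 FPKM. It stood at 1.38 and 2.11 in PPK sham, 0.677 and 1.26 in PP ADT, and 1.47 and 2.45 in PPK ADT. The PPK sham and PPK ADT libraries overlapped. The spread was wide within each pair except that of PP sham, and the SE was 0.223. The genotype difference in ADT mice was 0.58 ± 0.223 (limma adjusted p = 0.0613), which passed under the replicate block (0.00903), without PP ADT replicate B (0.0431) and without PPK ADT replicate A (0.0345). It fell by 0.89 ± 0.223 with ADT in PP (limma adjusted p = 0.0185), a call lost with no filter (0.0547) and without PP sham replicate A, replicate B or PP ADT replicate A (0.0617 to 0.0946).

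Aurkb, the enzyme of the chromosomal passenger complex, did not follow Aurka: it stood at 1.34 and 1.09 in PP sham, 1.05 and 1.28 in PPK sham, 0.260 and 0.370 in PP ADT, and 2.21 and 1.82 in PPK ADT. Birc5, the survivin subunit that brings Aurora B to centromeres, was 0.974 and 1.00 in PP sham, 0.933 and 1.14 in PPK sham, 0.438 and 0.403 in PP ADT, and 3.08 and 3.68 in PPK ADT. Both had sham groups that overlapped and ADT groups on opposite sides of them. The genotype differences in ADT mice were 1.20 ± 0.116 for Aurkb (limma adjusted p = 0.000162) and 1.62 ± 0.102 for Birc5 (limma adjusted p = 1.92e-05). Cdca8, the borealin subunit, ranged from 1.12 to 1.29 in sham libraries, with 0.580 and 0.586 in PP ADT and 2.45 and 1.96 in PPK ADT. Plk4, the kinase that starts centriole duplication, went from 0.460 and 0.440 in PP ADT to 1.12 and 1.18 in PPK ADT.

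**Figure D3:**
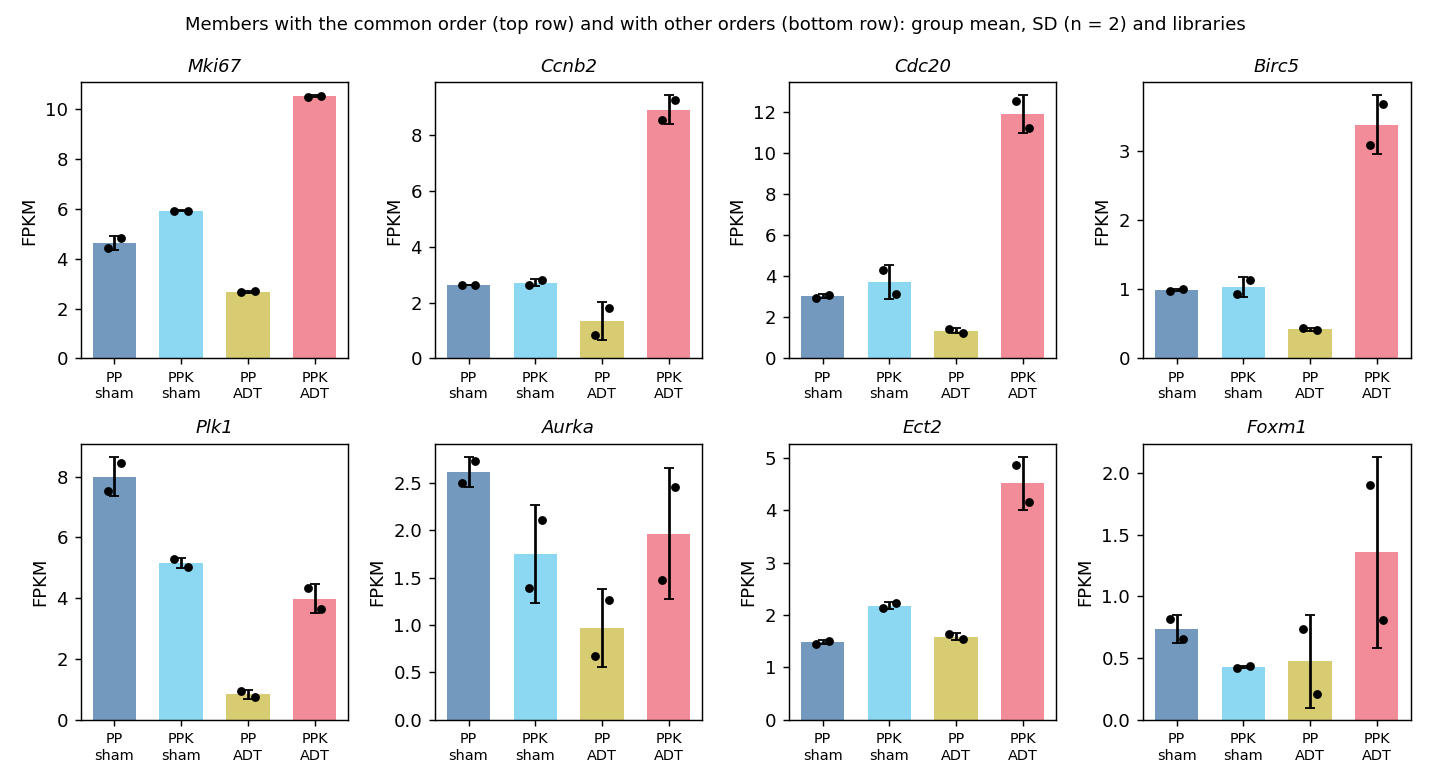
FPKM in each library for Mki67, Ccnb2, Cdc20 and Birc5 (top row), which have PPK ADT highest and PP ADT lowest, and for Plk1, Aurka, Ect2 and Foxm1 (bottom row), which depart from that order. Points are libraries, bars are means with SD (n = 2), and each vertical axis is linear and starts at 0.

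The checkpoint and anaphase genes showed the widest genotype difference by their summed level, which was 6.03 times as high in PPK ADT as in PP ADT. Cdc20, the activator of the anaphase-promoting complex (chromosome 4, 118432901 to 118437352), was 2.96 and 3.11 FPKM in PP sham, 4.30 and 3.13 in PPK sham, 1.42 and 1.26 in PP ADT, and 12.5 and 11.2 in PPK ADT. PPK ADT lay well above all other libraries, at the highest level of any of the 38 genes, and PPK sham replicate A above its partner. PPK exceeded PP in ADT mice by 2.46 ± 0.128 (limma adjusted p = 8.17e-06). ADT with age changed Cdc20 by -0.79 ± 0.128 among PP mice (adjusted p = 0.00312 from limma) but by 1.46 ± 0.128 among PPK mice (adjusted p = 9.01e-05 from limma).

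Ube2c, the ubiquitin-conjugating enzyme that works with that complex, stood at 1.49 and 1.88 in PP sham, 1.88 and 1.45 in PPK sham, 0.935 and 0.951 in PP ADT, and 6.70 and 5.29 in PPK ADT. Its genotype difference in ADT mice was 1.84 ± 0.139 (limma adjusted p = 4.71e-05). The checkpoint kinase Bub1 was 0.833 and 1.01 in PP sham, 1.04 and 1.03 in PPK sham, 0.357 and 0.308 in PP ADT, and 2.47 and 2.54 in PPK ADT. Bub1b, which encodes the checkpoint protein BubR1, did not change detectably with ADT in PP, from 1.70 and 1.21 to 1.17 and 1.14 (log2 difference -0.18 ± 0.125, limma adjusted p = 0.291), yet reached 3.93 and 4.77 in PPK ADT. Mad2l1, which encodes the Cdc20 inhibitor Mad2, stood at 0.499 to 0.917 in the other 6 libraries and at 1.85 and 1.83 in PPK ADT. Ttk, the kinase at the top of the checkpoint, was not tested and ranged from 0.0566 in PP ADT to 0.816 in PPK ADT.

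Kinetochore genes were low in all groups. Cenpe, a motor that aligns chromosomes, was read at 1.17 and 1.06 in PP sham, 1.01 and 1.30 in PPK sham, 0.711 and 0.585 in PP ADT, and 3.04 and 3.06 in PPK ADT, and differed by genotype in ADT mice by 1.30 ± 0.0992 (limma adjusted p = 4.97e-05). Cenpa, the histone variant that marks centromeres, lay between 0.337 and 0.823 in 6 libraries and at 2.97 and 2.58 in PPK ADT. Cenpf, a kinetochore protein that accumulates in G2, reached 1.36 and 1.27 there. Ndc80 and Nuf2, subunits of the complex that grips microtubules, stayed below 1 FPKM in every library and were not tested. In the fit with no filter both were higher in PPK than PP among ADT mice, Ndc80 by 0.63 ± 0.108 (limma adjusted p = 0.00771) and Nuf2 by 0.70 ± 0.0787 (limma adjusted p = 0.0014).

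Spindle genes behaved alike: the sham libraries of the 7 summed to 5.80 to 6.08 FPKM, PP ADT to 3.11 and 2.90, and PPK ADT to 15.3 and 15.6. Kif11, the motor that pushes spindle poles apart, was 1.06 and 1.03 in PP sham, 1.17 and 0.935 in PPK sham, 0.730 and 0.579 in PP ADT, and 3.34 and 3.32 in PPK ADT. Tpx2, which activates Aurora A on the spindle, was 1.36 and 1.33 in PP sham, 1.38 and 1.62 in PPK sham, 0.770 and 0.517 in PP ADT, and 3.50 and 3.66 in PPK ADT. Genotype differences in ADT mice were 1.39 ± 0.0946 for Kif11 (limma adjusted p = 2.87e-05) and 1.48 ± 0.104 for Tpx2 (limma adjusted p = 3.37e-05). The ratio of PPK ADT to PP ADT means of the 7 ran narrowly, from 4.66 for Nusap1, a microtubule bundler, to 7.04 for Aspm, a spindle pole protein. Hmmr, which encodes a spindle assembly factor, stood at 2.19 and 2.13 in PPK ADT, Kif4, a chromokinesin, at 1.86 and 2.08, and Kif2c, a microtubule depolymerase, at 1.12 and 1.24. Aspm was under 1 FPKM throughout, with 0.913 and 0.781 in PPK ADT and 0.097 to 0.325 elsewhere.

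The summed level of the cytokinesis genes in PPK ADT was 2.68 times that in PP ADT, the smallest ratio of the 7 roles. Ect2, which activates RhoA at the division plane (chromosome 3, 27097222 to 27153878), was 1.45 and 1.51 in PP sham, 2.13 and 2.22 in PPK sham, 1.63 and 1.55 in PP ADT, and 4.87 and 4.15 in PPK ADT. PP ADT lay slightly above PP sham (log2 difference 0.06 ± 0.0888, limma adjusted p = 0.6), the only one of the 38 genes with that order, and PPK exceeded PP in sham mice as well, by 0.36 ± 0.0888 (limma adjusted p = 0.0254), a call lost with no filter (0.0572) and without any 1 of the 4 sham libraries (0.0752 to 0.108).

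Prc1, which bundles the midzone microtubules, was 1.50 and 1.49 in PP sham, 2.29 and 2.28 in PPK sham, 1.19 and 0.848 in PP ADT, and 3.39 and 2.77 in PPK ADT. Its sham difference of 0.40 ± 0.116 (limma adjusted p = 0.0456) was lost at a pseudocount of 0.1 (0.0615) and without any 1 of the 4 sham libraries (0.132 to 0.148). Kif23, a motor of the midzone, moved little with ADT: 0.874 and 0.775 in PP sham and 0.641 and 0.819 in PP ADT, and 1.16 and 1.32 in PPK sham and 1.58 and 1.67 in PPK ADT. Anln, which encodes the ring scaffold anillin, was 2.09 and 2.25 in PP sham, 1.68 and 2.03 in PPK sham, 1.54 and 1.24 in PP ADT, and 2.31 and 2.48 in PPK ADT. Anln kept the common order with the smallest ratio of the 38. Kif20a, another midzone motor, resembled the spindle genes, with 0.918 and 0.724 in PP ADT and 3.40 and 3.17 in PPK ADT.

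The chromosome genes gave the most precise values. Mki67, which encodes the marker Ki-67 that coats mitotic chromosomes (chromosome 7, 135689784 to 135716361), was 4.44 and 4.82 FPKM in PP sham, 5.92 and 5.94 in PPK sham, 2.65 and 2.69 in PP ADT, and 10.5 and 10.5 in PPK ADT. No groups overlapped. Sham mice differed by genotype by 0.30 ± 0.0614 (adjusted p = 0.0126 from limma), a call lost without PP sham replicate A, PPK sham replicate A or PPK sham replicate B (0.0524 to 0.0727). For ADT mice the genotype difference was 1.65 ± 0.0614 (adjusted p = 1.8e-06 from limma). ADT with age changed Mki67 by -0.62 ± 0.0614 among PP mice (adjusted p = 0.000332 from limma) and by 0.73 ± 0.0614 among PPK mice (adjusted p = 7.25e-05 from limma). Top2a, the topoisomerase that untangles sister chromatids (chromosome 11, 98992943 to 99024189), was 3.27 and 3.30 in PP sham, 3.55 and 3.85 in PPK sham, 1.93 and 1.84 in PP ADT, and 8.01 and 8.44 in PPK ADT, with a genotype difference in ADT mice of 1.68 ± 0.07 (limma adjusted p = 2.98e-06).

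Whether fragments were counted by strand is not stated. Exons of Kif20a share 1271 bases with Cdc23 on the other strand, those of Prc1 share 911 with Rccd1 and those of Kif4 share 832 with Pdzd11. Likewise Cdc25c shares 623 with Gm3550, Ube2c 592 with Tnnc2 and Ccna2 510 with Exosc9. Shorter stretches on the other strand are shared by Cdca8 (232), Nusap1 (172), Plk1 (156) and Cdc20 (53). Top2a shares 122 bases with Gm23451 on the same strand. All of these levels are thus less certain. Of the processed copies, Ccnb1-ps was read at 0.0275 to 0.447 FPKM and Ccnb2-ps at 0.0346 to 0.215, and reads may have been split with the parent genes.

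Other genes of the same process were counted from lists written from general knowledge. These lists were chosen with earlier results of these data known, so their counts are not independent of the data. Of 33 tested of 46 further mitosis genes, 31 were higher in PPK than PP among ADT mice (32.5% of all genes tested) and 1 was lower (27.1%). With ADT in PPK 28 were higher (31.9%) and 1 was lower (30.7%), and with ADT in PP 2 were higher (19.1%) and 12 lower (25.1%). But Kif18b, Kif22, Spc24, Zwilch, Knstrn, Spag5, Ska3, Dlgap5, Nek2, Cenpm, Cenph, Depdc1a and Pimreg entered the test only through their PPK ADT libraries. The filter thus favoured a higher level there, and all of these genes are among the 31. No count was made without such genes, here or for the lists below. In sham mice 3 were higher (13.7%) and 0 lower (14.9%). Ckap2, a spindle protein, went from 0.688 and 0.795 in PP ADT to 4.61 and 4.22 in PPK ADT (log2 difference 1.64 ± 0.12, limma adjusted p = 4.12e-05). Incenp, the scaffold of the passenger complex, ran another course: 5.69 and 5.40 in PP sham, 10.4 and 11.3 in PPK sham, 2.60 and 2.44 in PP ADT, and 5.48 and 5.56 in PPK ADT. It was higher in PPK in sham mice by 0.85 ± 0.0684 (limma adjusted p = 0.000253) and fell with ADT in both genotypes. Zwint, a kinetochore protein, rose with ADT in both, from 13.1 and 14.2 to 23.6 and 23.5 in PP.

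Of the 16 core and regulatory genes of the anaphase-promoting complex, 4 were higher (32.5% of all genes tested) and 2 lower (27.1%) in PPK than PP among ADT mice, and their median log2 difference was 0.09 against 0.05 over all genes tested. Of 18 condensin and cohesin genes tested, 14 were higher and 3 lower, with a median of 0.44. Smc2, a condensin core subunit, stood at 7.52 and 7.75 in PPK ADT and at 1.86 to 2.46 in the other 6 libraries. Of 17 tested MuvB, E2F and NF-Y genes, which act on these promoters, 6 were higher, near the share of all genes tested, and 1 lower, with a median of 0.09. E2f3 stood at 7.44 and 7.98 in PPK ADT and at 4.99 and 4.48 in PP ADT.

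Of 17 genes of the G2 checkpoint and the CDK1 switch, a list that holds inhibitors and activators, 11 were higher (32.5% of all genes tested) and 3 lower (27.1%) in PPK than PP among ADT mice, with a median of 0.66 against 0.05. The inhibitory kinase Wee1 was 42.5 and 42.4 in PP sham, 39.7 and 39.1 in PPK sham, 37.1 and 37.1 in PP ADT, and 14.6 and 13.8 in PPK ADT, a genotype difference in ADT mice of -1.32 ± 0.038 (limma adjusted p = 5.73e-07). Its opponent Cdc25b, a phosphatase that activates CDK1, was 3.37 and 3.39 in PP sham, 1.57 and 1.61 in PPK sham, 1.25 and 1.58 in PP ADT, and 9.02 and 8.46 in PPK ADT, a difference of 2.01 ± 0.0888 (limma adjusted p = 3.86e-06). Yet the CDK inhibitor Cdkn1a was also higher with ADT in PPK, by 1.16 ± 0.0451 (limma adjusted p = 1.89e-06). So was Sfn, a 14-3-3 protein that keeps CDK1 inactive and is abundant in stratified epithelium, by 2.10 ± 0.0214 (limma adjusted p = 7.72e-09). Sfn rose with ADT in PP too, by 0.60 ± 0.0214 (limma adjusted p = 3.09e-06). Its genotype difference in ADT mice was 1.51 ± 0.0214 (limma adjusted p = 4.68e-08).

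Of 20 tested S phase genes, 18 had higher levels in PPK ADT than PP ADT (32.5% of all genes tested) and 0 had lower ones (27.1%), with a median of 0.70. With ADT in PP 3 were lower (25.1%) and 1 higher (19.1%), with a median of -0.05, where the 32 tested G2 and mitosis genes had 23 lower and a median of -0.43. Rrm2, a subunit of the enzyme that makes deoxynucleotides, was 2.20 and 2.49 in PP sham, 3.63 and 3.16 in PPK sham, 1.41 and 1.45 in PP ADT, and 14.0 and 14.7 in PPK ADT. No test of one list against the other was made.

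Markers of cell types also differed between the groups. Epcam, on which the cells were sorted, was read at 310 to 565 FPKM in all libraries. The 5 secretory markers of the normal prostate, such as Pbsn, summed to 728 and 700 in PP sham, 159 and 154 in PPK sham, 0.366 and 0.426 in PP ADT, and 0.0538 and 0.0579 in PPK ADT, so they were near 0 in both ADT groups. Of 7 luminal markers, all 7 were lower in PPK ADT than PP ADT (27.1% of all genes tested were). Epcam and Cd24a, both used in the sort, are among these 7. The summed level of the 7 was 5377 to 6282 FPKM in the other 6 libraries and 1964 and 2001 in PPK ADT. Of 7 basal markers, 5 were higher (32.5% of all genes tested) and 1 lower (27.1%). The basal sums were 878 to 884 in PP sham, 1332 and 1344 in PPK sham, 849 and 860 in PP ADT, and 5776 and 5845 in PPK ADT. Krt5, a keratin of basal cells, was 94.3 and 96.8 in PP ADT and 3242 and 3243 in PPK ADT. Of 7 suprabasal markers, 6 were higher (32.5% of all genes tested), with sums of 473 and 496 in PP ADT and 2215 and 2248 in PPK ADT. The PPK ADT libraries thus had the highest mitotic and the highest basal and suprabasal sums of the 8. The gate for low CD49f, the product of the basal marker Itga6, would remove basal cells. Itga6 itself had 34.2 and 32.6 FPKM in the PP ADT libraries, against 33.9 and 34.4 FPKM for PPK ADT. The part of these cell types in the mitotic levels was not tested.

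Summed markers of cells that are not epithelial were low beside the luminal, basal and suprabasal sums, but not beside the 38 genes. In PPK ADT the median fibroblast and muscle marker stood at 4.29 FPKM, against 2.45 for the 38 genes. All 6 fibroblast and muscle markers tested were higher in PPK ADT than PP ADT (32.5% of all genes tested). The 9 fibroblast and muscle markers summed to 5.74 and 6.30 in PP ADT and 36.6 and 38.4 in PPK ADT, and 20.9 and 21.6 in PPK sham. The 6 erythroid markers summed to 7.54 to 25.1, highest in PPK ADT. The 10 myeloid markers summed to 13.6 and 15.7 in PP sham, 35.5 to 39.0 in PPK sham and PP ADT, and 45.1 and 45.8 in PPK ADT. Yet the median myeloid marker stood at 1.37 in PPK sham, 1.15 in PP ADT and 0.975 in PPK ADT. Of 6 myeloid markers tested, 3 were higher (32.5% of all genes tested) and 2 lower (27.1%) in PPK ADT than PP ADT. Ptprc, which all white blood cells express, did not exceed 0.188. The 8 lymphocyte markers summed to at most 1.05, with Cd3e and Cd3g at 0 in both PPK ADT libraries, and the 6 endothelial markers to at most 4.27, highest in PPK sham. The part of fibroblasts, muscle, erythroid and myeloid cells was not tested.

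**Figure D4:**
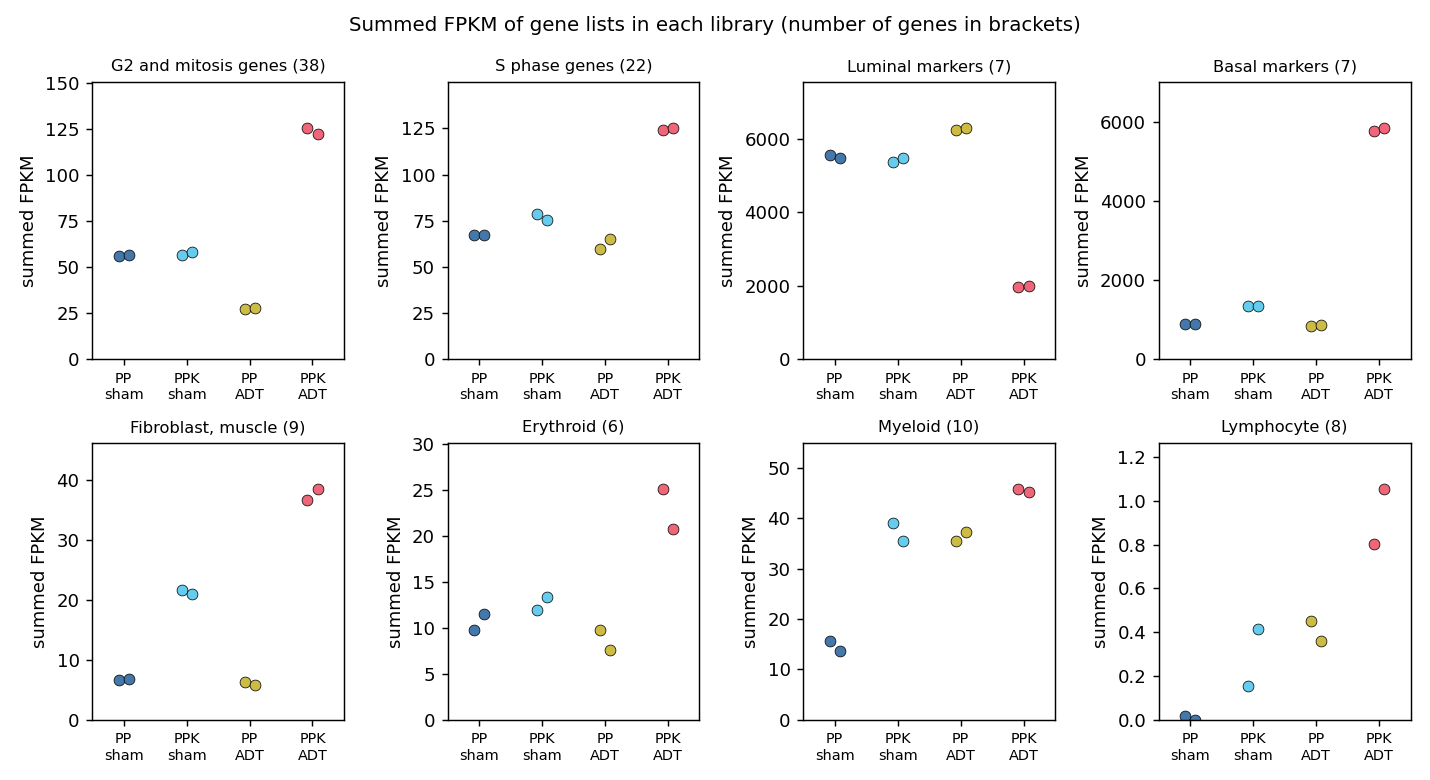
Summed FPKM in each library of the 38 G2 and mitosis genes, the S phase genes and marker lists of cell types, on linear axes that start at 0, with 2 points per group. PPK ADT is highest for the 38 genes (125.5 and 122.6), S phase genes and basal markers. Its sums are also highest for fibroblast and muscle, erythroid, myeloid and lymphocyte markers, and lowest for luminal markers. The median myeloid marker and the median lymphocyte marker were not highest in PPK ADT.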

How the data were processed

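RNA of sorted mouse prostate epithelium was measured in 8 libraries. Per the labels' protocols, the RNA was purified with Trizol, and the TruSeq libraries keep the strand. The authors deposited FPKM values, 1 table for each library. FastQC 0.11.2 and the build mm10 are named in the submitters' processing notes. Which aligner, quantifier and annotation were used is not given in the sources used here. Organoid experiments were not analysed here, and 1 allele that all mice share is not named here.

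The tables were joined on 55335 identifiers, of which 55154 got a symbol and position from GENCODE M21 on GRCm38. A limma model (version 3.58.1, R 4.3.3) of log2(FPKM + 1) took the mean of each of the 4 groups and let the prior variance follow the level (residual degrees of freedom 4, prior 2.4), on 14000 genes with 1 FPKM or more in 2 or more libraries. Calls are two-sided, at a Benjamini-Hochberg adjusted p under 0.05 over all genes tested. The script was tested on simulated data. The 38 genes and the further lists were chosen with earlier results of these data known. All 38 could be named, and from each further list up to 4 genes with the smallest adjusted p in a comparison. Markers named beside the sums, and genes singled out for their order, exceptions or entry into the test, were chosen after their values were seen. So was the 300-base promoter window. The replicate letters were not used as pairs: deviations of same-lettered libraries correlated at -0.00791 to 0.0566 between groups. Alternatives were pseudocount 0.1, no filter, a mean of at least 5 FPKM, median-of-ratios and quantile scaling, a replicate block, a fit of both groups alone, array weights, no trend, a log2 difference of at least 1, and each library left out. Figures were drawn with matplotlib 3.10.9, and tables handled with pandas 2.3.3 and numpy 2.4.6 (Python 3.11.15).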

Additional observations from a re-analysis of the deposited data

Results flagged for a closer look

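The effect of genotype differed between ADT and sham mice in 30 of the 32 genes tested, by a direct test of the difference (limma, adjusted p under 0.05). Over all genes tested, the difference was called positive in 30.0% and negative in 22.8%. Each value is the log2 difference of PPK from PP in ADT mice minus that in sham mice. Among mitotic entry genes it was 2.09 for Ccnb2, 1.69 for Cdca3, 1.36 for Ccnb1, 1.31 for Ccna2 and 0.97 for Cdk1. Among kinases and passenger complex genes it was 1.99 for Plk1, 1.59 for Birc5, 1.23 for Aurkb, 0.99 for Aurka and 0.95 for Cdca8. It was 2.24 for Cdc20, 1.85 for Ube2c, 1.38 for Bub1b, 1.31 for Bub1 and 0.95 for Mad2l1 in the checkpoint and anaphase group, and 1.34 for Cenpa, 1.27 for Cenpe and 0.70 for Cenpf at the kinetochore. The spindle genes gave 1.39 for Tpx2, 1.39 for Kif11, 1.23 for Nusap1, 1.18 for Hmmr, 1.03 for Kif4 and 0.92 for Kif2c. The cytokinesis genes gave 1.15 for Kif20a, 0.73 for Ect2, 0.66 for Anln and 0.62 for Prc1, and the chromosome genes 1.55 for Top2a and 1.35 for Mki67. For Plk1 the effect of genotype had opposite signs in sham and ADT mice. Mad2l1, Cenpa, Cenpf, Kif2c, Kif4 and Hmmr entered the test only through their PPK ADT libraries.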

How the results depend on the processing

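The higher level in PPK among ADT mice was the most stable result: all 31 calls held in each alternative in which the gene was tested, other than the rule on size, and so did 28 of 30 for the difference of the genotype effects (not Aurka and Prc1). With each library left out in turn the counts were 25 to 32 higher and 24 to 29 positive, where leaving out a PPK ADT library also took genes out of the test. The calls with ADT in PPK held for 25 of 28, with 20 to 27 higher and 0 to 1 lower. With ADT in PP 9 of 23 held, with 12 to 23 lower, and in sham mice 0 of 4, with 0 to 3 higher and 0 to 1 lower. With no filter there were 1 higher in sham mice, 14 lower with ADT in PP and 0 lower with ADT in PPK, where Plk1 was also lost at pseudocount 0.1 and with only both PPK groups in the fit (0 each). The fit of both PP groups alone tested 19 of the genes and called 13 lower. At a mean of 5 FPKM only Mki67 was tested, which gave 1 higher in sham mice, 1 in ADT mice, 1 lower with ADT in PP, 1 higher with ADT in PPK, 1 positive difference of effects, and 0 lower in sham mice and with ADT in PPK. The rule of a log2 difference of at least 1 left 0 higher (1.96% of all genes tested) and 0 lower (1.72%) in sham mice. It left 1 lower with ADT in PP (Plk1, against 4.39%), and 7 higher (10.1%) and 0 lower (9.66%) with ADT in PPK. No called value changed its sign in any alternative run.

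The replicate letters share only a name. A fit with the replicate block gave 3 higher and 1 lower in sham mice, 32 higher in ADT mice, 23 lower with ADT in PP, 28 higher and 1 lower with ADT in PPK, and 30 positive differences of effects. Libraries left out leave 1 in a group, which is assumed to vary like the others. Levels near 1 FPKM, unknown absolute depth and 2 libraries a group limit what could be detected.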
